A study of Mus musculus with 8 samples.

Results

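Collagens, laminins and the other structural genes of the basement membrane were followed in the retina of C57BL/6J mice aged 17 days, all of them subjected to oxygen-induced retinopathy. The genes were chosen by symbol and not by their values, though earlier results of these data were known. They were every gene named as a collagen α chain, a laminin α, β or γ chain, a nidogen, perlecan (Hspg2) or agrin (Agrn). They numbered 59 of the 57010 genes listed, 44 of them collagens, 11 laminin chains and 4 nidogens and heparan sulfate proteoglycans. Oxygen-induced retinopathy is a model in which young mice are held in high oxygen, lose retinal capillaries, and then grow abnormal vessels in room air. Total RNA of 8 retinal samples was sequenced, 4 after a control scAAV (a self-complementary adeno-associated viral vector, used to carry genes into cells) and 4 after an scAAV directed at lncRNA-MM2P, a long noncoding RNA. All 8 came from the same strain, age and disease model, so neither untreated retinas nor retinas in normal oxygen served as a reference. The labels tag the knockdown group as a knockout, and they do not give the vector's promoter, the cells it reached, the sex of the mice or whether tissue was pooled. They also do not say that replicates are separate animals, so the p-values below set group differences against the spread between these samples only. Levels of the sex-linked genes Xist and Ddx3y, given below, differed within each group, so the libraries of a group were not all repeats of 1 RNA sample.

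Basement membranes are thin sheets of matrix on which vessels, glia and epithelia rest. Laminin trimers (1 α, 1 β and 1 γ chain) and type IV collagen trimers each polymerise into a network, and nidogens and perlecan join the networks together. In the retina such sheets surround every capillary and form the inner limiting membrane, where glial end feet meet the vitreous. Fibrillar collagens form the cables of connective tissue such as the sclera, while collagens II and IX form the fibrils of the vitreous.

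The libraries held 16.03 to 21.4 M estimated counts (M, 1000000), and 3 counts corresponded to 0.140 to 0.187 counts per M (CPM). Markers of Müller glia, the main glial cell of the retina, summed to 3740 to 4097 TPM (transcripts per M, counts corrected for gene length and library size) over 8 genes in every library, as fits the labelled tissue. MM2P, listed as Mm2pr, had 1, 1, 16.95 and 7.34 counts in controls 1 to 4 and 0, 0, 2 and 20.6 counts in knockdown 1 to 4. The groups overlapped, and the library labelled knockdown 4 had more counts of the target than any control, so the target did not check the group labels and went against that of knockdown 4. Library names below follow the labels. Some libraries stood apart in marker lists of other tissues. The summed level of 20 lens markers was 12.1 to 16.6 TPM in the controls and 133, 53.2, 549 and 136 TPM in knockdown 1 to 4. The 14 crystallins in the list summed to 7.92 to 13.1 TPM in the controls and to 129, 50.03, 534 and 131 TPM in knockdown 1 to 4. The crystallins thus made up most of the lens marker sum, and the other lens markers were not summed by themselves. The lens regulator Foxe3 was at 0 in every library, the 1 gene of the 20 for which this held. The 8 skeletal muscle markers summed to 65.6 TPM in knockdown 4 and to 5.10 to 13.02 TPM in the other 7 libraries.

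Some type IV collagen genes start back to back, and sequences around such starts are shown here as description. No level was read from them. Col4a1 and Col4a2, which encode the chains of the type IV collagen trimer found in every basement membrane, start in opposite directions on chromosome 8. Their RefSeq starts lie so close that the transcripts share 22 exonic bases. Col4a5 and Col4a6, chains of another type IV trimer, start in opposite directions on the X chromosome, 1343 bases apart. Windows from 250 bases before to 50 after the start are shown for Col4a2, which also holds the start of Col4a1 at its base 272, for Col4a5 and Col4a6, and for Nid1, whose product joins the 2 networks. Capitals mark GC boxes (GGGCGG) and CCAAT boxes (CCAAT) on either strand. The sequences are RefSeq's on GRCm38.p6, at chr8:11312555-11312854 (plus strand), chrX:141475169-141475468 (plus), chrX:141474027-141474326 (minus) and chr13:13437352-13437651 (plus).
Col4a2: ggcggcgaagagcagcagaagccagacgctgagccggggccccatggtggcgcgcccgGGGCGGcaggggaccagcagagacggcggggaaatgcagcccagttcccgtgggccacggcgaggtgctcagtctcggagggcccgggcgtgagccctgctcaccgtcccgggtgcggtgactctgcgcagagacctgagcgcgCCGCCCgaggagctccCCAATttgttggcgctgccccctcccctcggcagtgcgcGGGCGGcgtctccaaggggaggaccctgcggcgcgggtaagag
Col4a5: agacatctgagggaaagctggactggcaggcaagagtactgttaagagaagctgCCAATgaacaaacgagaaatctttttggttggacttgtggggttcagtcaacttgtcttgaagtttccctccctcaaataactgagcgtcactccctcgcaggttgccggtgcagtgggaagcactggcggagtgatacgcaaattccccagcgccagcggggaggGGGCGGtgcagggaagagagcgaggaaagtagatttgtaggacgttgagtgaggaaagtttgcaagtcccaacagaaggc
Col4a6: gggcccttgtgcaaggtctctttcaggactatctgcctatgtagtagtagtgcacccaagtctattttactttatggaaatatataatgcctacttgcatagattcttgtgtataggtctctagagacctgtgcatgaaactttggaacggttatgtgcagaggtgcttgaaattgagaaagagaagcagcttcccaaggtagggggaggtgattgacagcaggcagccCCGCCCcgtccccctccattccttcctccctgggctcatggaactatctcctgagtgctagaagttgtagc
Nid1: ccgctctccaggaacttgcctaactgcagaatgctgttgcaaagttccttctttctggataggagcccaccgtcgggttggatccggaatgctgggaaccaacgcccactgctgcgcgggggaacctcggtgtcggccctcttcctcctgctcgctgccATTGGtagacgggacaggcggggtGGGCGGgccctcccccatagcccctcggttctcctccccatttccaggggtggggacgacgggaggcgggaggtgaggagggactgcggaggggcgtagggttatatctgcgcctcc
Of these windows, those of Col4a2, Col4a5 and Nid1 held both motifs and that of Col4a6 a GC box alone. Windows were at hand for 43 of the 59 genes, 48 windows in all. A GC box lay in 30 of the 48 (62.5%), against 35.7% of 32851 windows of the same length over all genes. CCAAT lay in 15 of the 48 (31.2%), against 37.4% over all genes. The TATA box (TATAAA) and the core ACGTG of hypoxia response elements, both searched on both strands, each lay in 5 of the 48 (10.4%), against 13.6% and 19.6% over all genes. A match in these letters describes the window and is not a measured binding site.

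Of the 59 genes, 48 were at 1 TPM or above in 4 or more libraries and were tested. Each of these reached 1 TPM in at least 1 library of both groups, but 6 of them did not in all 8 libraries. Among the 6 were Col10a1, below 1 TPM in some knockdown libraries, and Col4a6 and Col6a4, below it in some controls. For Col10a1, Col4a6 and Col6a4 the 4 libraries of the higher group were enough to pass the filter. Some libraries of the other group also reached 1 TPM for each of them. None of the 48 passed the quasi-likelihood test of edgeR over all genes (smallest adjusted p = 0.465, for Col10a1). Over all 16118 tested genes, 0.062% were called at an adjusted p under 0.05. At an unadjusted p under 0.05 there were 11 of the 48 (22.9%), against 5.27% of all tested genes. Of these 11, 6 were lower in the knockdown (Col4a1, Col4a2, Nid1, Lama4, Col5a2 and Col10a1; 2.66% of all genes) and 5 were higher (Col4a5, Col4a6, Col6a4, Col12a1 and Col17a1; 2.62% of all genes). DESeq2 also called 0 of the 48 (0.279% of all genes), with 11 at an unadjusted p under 0.05 (4.71% of all genes). The DESeq2 set held Col1a1 (DESeq2 unadjusted p = 0.0416) in place of Col5a2 (DESeq2 unadjusted p = 0.0621). With limma on log2(TPM + 1) 0 were called (0.0% of all genes), with 4 at an unadjusted p under 0.05 (4.99% of all genes). In CPM with TMM scaling the groups did not overlap for 4 members that were lower in the knockdown (Nid1, Lama4, Col5a2 and Col10a1; 1.71% of all genes) and for 0 that were higher (1.6% of all genes). Without control 1 the 11 at an unadjusted p under 0.05 became 5 (10.4%, against 4.18% of all genes), and without knockdown 3 they became 7 (14.6%, against 3.76%). Without knockdown 4, the library with the most target counts, they became 8 (16.7%, against 5.52%), and Col4a5, Col6a4 and Col12a1 were no longer among them. Col4a2, Lama4 and Col10a1 kept an unadjusted p under 0.05 in each of the 8 fits that leave out 1 library, while each of the other 8 lost it in at least 1. The 48 genes had 26 negative and 22 positive log2 fold changes (knockdown over control), with a median of -0.03. Over all tested genes 48.2% were negative, and the median was 0.00. The split turned with single libraries: 20 were negative without control 1, and 30 without control 3 or without knockdown 4.

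**Figure D1:**
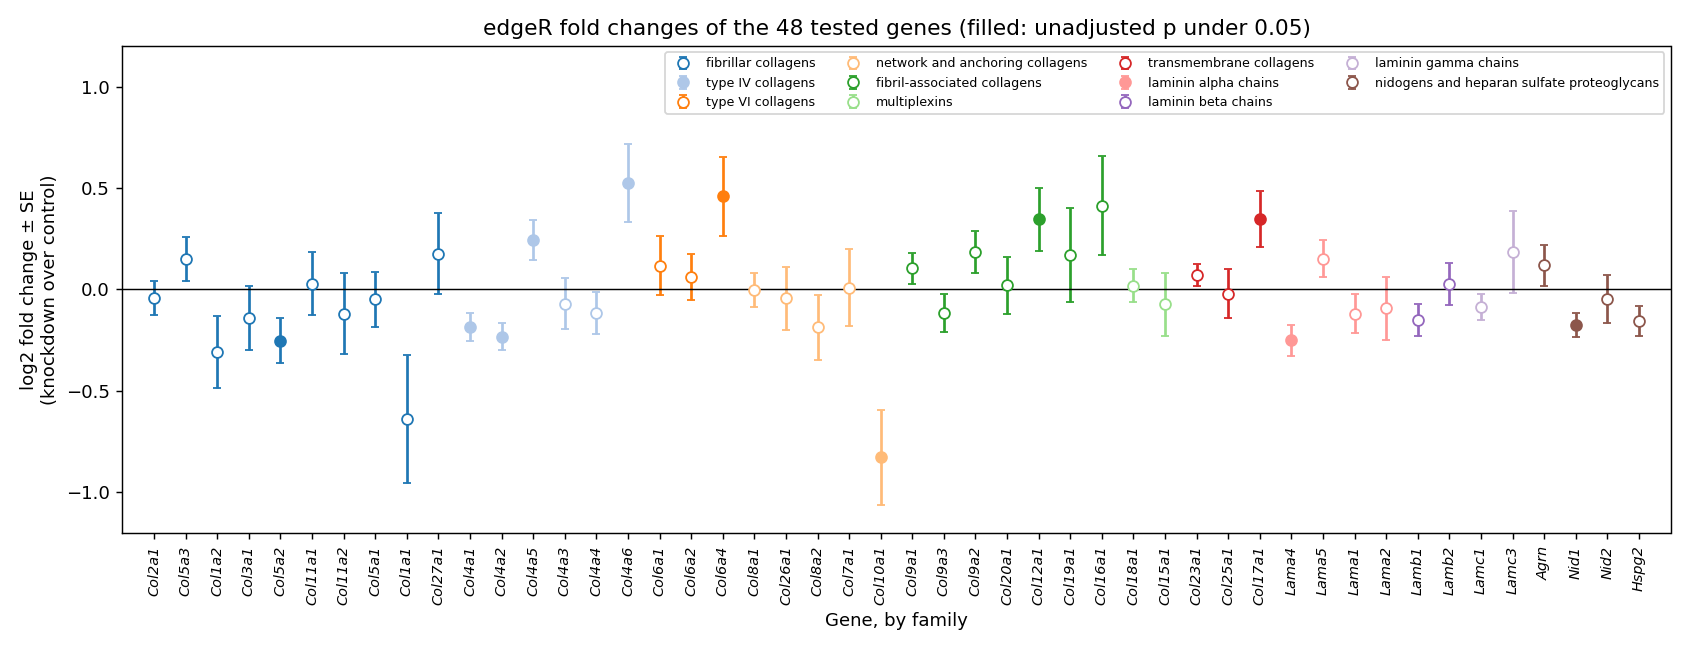
log2 fold change of each of the 48 tested genes, knockdown over control, with its SE from edgeR (y axis), grouped and coloured by family (x axis). Filled points mark the 11 genes at an unadjusted p under 0.05: Col4a1, Col4a2, Nid1, Lama4, Col5a2 and Col10a1 lie below 0, and Col4a5, Col4a6, Col6a4, Col12a1 and Col17a1 above it.

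The 59 genes differed widely in level per length, and a few dominated. Col9a1, a chain of the vitreous collagen IX that is made by the eye's inner tissues, was the highest, at 96.7 to 135 TPM over the 8 libraries. Col4a1 followed at 87.3 to 122 TPM, Col4a2 at 48.1 to 70.5 TPM and Col23a1, a membrane-bound collagen, at 49.2 to 58.5 TPM. Their neighbours in this order were Col2a1 at 40.3 to 53.4 TPM and Agrn at 39.5 to 56.8 TPM. The ranges of Col9a1 and Col4a1 overlapped, as did those of Col4a2, Col23a1, Col2a1 and Agrn, so within each set the order is not firm. The 5 highest genes carried 50.001% of the summed TPM of all 59. By mean level 17 genes exceeded 10 TPM, and 31 of the tested genes were at 10 TPM or below. The spread between replicates was moderate: the median coefficient of variation over the 48 tested genes was 13.4% in the controls and 11.5% in the knockdown.

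**Figure D2:**
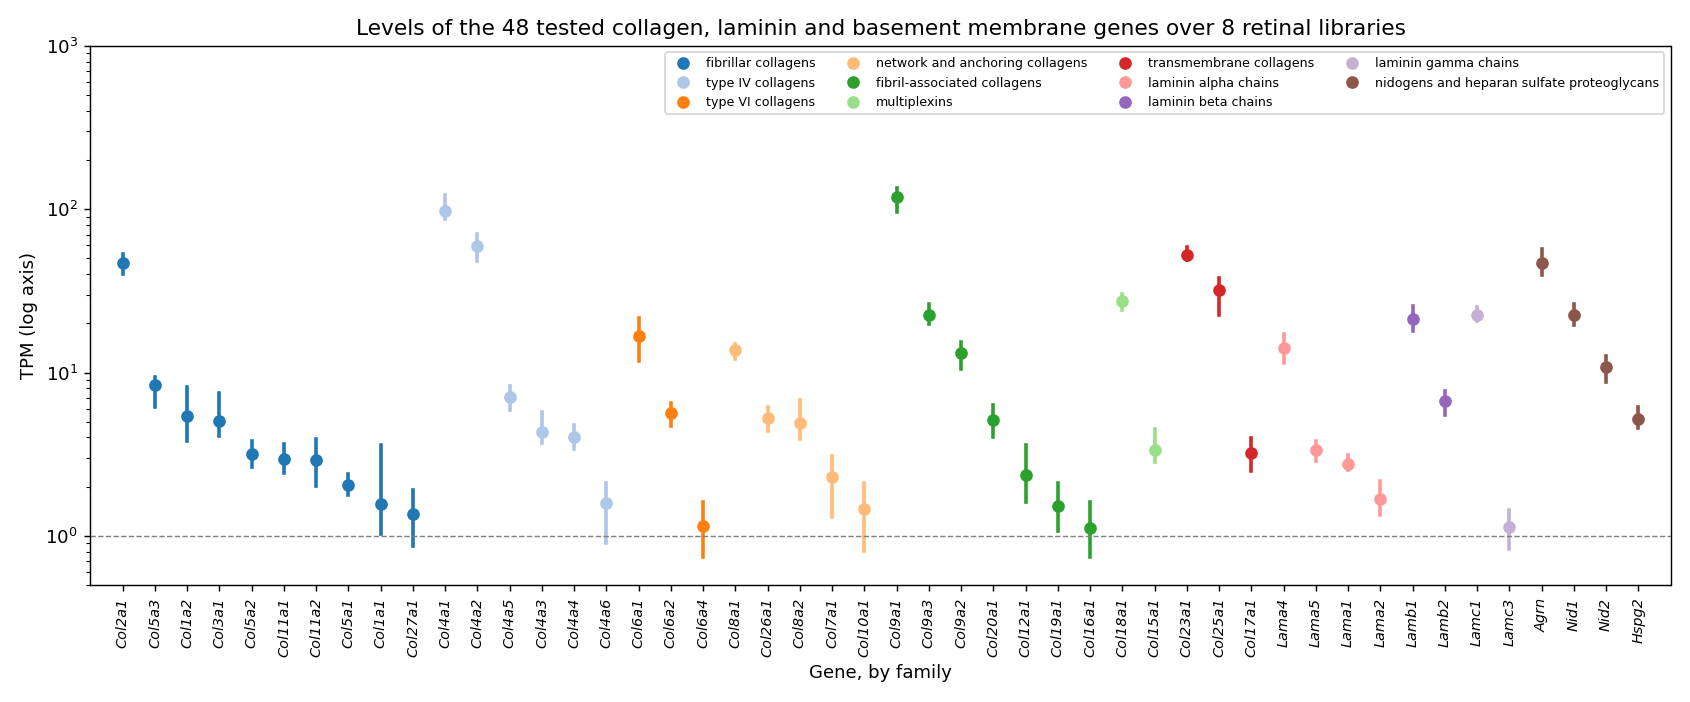
Mean level in TPM (points, log axis) with the lowest and highest of the 8 libraries (bars) for each of the 48 tested genes, ordered by family and by level within it; the dashed line marks 1 TPM. Col9a1 and Col4a1 lie near the top at 87.3 to 135 TPM, and 31 genes have means at 10 TPM or below.

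The most abundant type IV collagen chains had lower means in the knockdown retinas. Col4a1 (chromosome 8, 11198423 to 11312826, minus strand, GRCm38) had 122, 106, 101 and 88.9 TPM in controls 1 to 4 and 87.3, 97.6, 89.5 and 93.4 TPM in knockdown 1 to 4. Controls 1 to 3 lay above all knockdown libraries and control 4 lay among them. This gave a log2 fold change of -0.18 (SE 0.07, edgeR unadjusted p = 0.0208, adjusted p = 0.852). Without control 1 the change was -0.11 (unadjusted p = 0.0971).

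Col4a2 (chromosome 8, 11312805 to 11449287, plus strand) had 70.5, 70.1, 60.3 and 55.5 TPM in the controls and 48.1, 58.2, 56.0 and 56.5 TPM in the knockdown. The groups overlapped through control 4, and knockdown 1 was the lowest library. The edgeR estimate was a log2 fold change of -0.23 (SE 0.07, edgeR unadjusted p = 0.00398, adjusted p = 0.489). With no expression filter the adjusted p of Col4a2 was 0.0496, which was the 1 call among the 59 genes under any setting tried. The 2 chains kept their proportion: the mean ratio of Col4a1 to Col4a2 TPM was 1.63 ± 0.0914 for control and 1.69 ± 0.0920 for knockdown libraries (SD, n = 4), within 1.51 to 1.82 over all 8.

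The other type IV chains were scarcer, and their differences were not all in that direction. Col4a3 and Col4a4, which assemble with Col4a5 in specialised basement membranes such as that of the glomerulus, had control means of 4.41 ± 0.905 and 4.17 ± 0.581 TPM (SD, n = 4). Their knockdown means were 4.21 ± 0.527 and 3.86 ± 0.332 TPM (SD, n = 4), differences smaller than the spread between replicates. The ratio of Col4a3 to Col4a4 stayed between 0.924 and 1.21 in the 8 libraries.

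Col4a5 had 7.01, 6.02, 5.92 and 6.93 TPM in the controls and 8.06, 7.09, 7.32 and 8.28 TPM in the knockdown. All knockdown libraries lay above all controls in TPM, as held in the same direction for 1.5% of all tested genes, but the groups overlapped in CPM with TMM scaling. On the log2 scale the difference was 0.25 (SE 0.10, edgeR unadjusted p = 0.0263, adjusted p = 0.895). Col4a6 had 1.25, 1.71, 0.906 and 1.32 TPM in the controls and 1.90, 1.46, 2.01 and 2.10 TPM in the knockdown. Control 2 lay above knockdown 2, and control 3 was the lowest. The log2 fold change was 0.52 (SE 0.19, edgeR unadjusted p = 0.0167, adjusted p = 0.822).

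Both genes lie on the X chromosome, and the libraries differed in sex-linked transcripts. Xist, which is made from the inactive X chromosome, was at 0.103 TPM in control 3 and at 137 to 398 TPM elsewhere. The Y-linked gene Ddx3y was at 0 in control 1, knockdown 1 and knockdown 3 and at 22.9 to 48.3 TPM in the others. Control 2, control 4, knockdown 2 and knockdown 4 carried both, with Xist at 137 to 199 TPM and Ddx3y at 22.9 to 27.9 TPM. Whether tissue of both sexes was pooled in these libraries was not tested. With Y-linked expression as a covariate the edgeR log2 fold change of Col4a6 was 0.50, and without control 3 it was 0.39 (unadjusted p = 0.0532). The lens marker sum was also higher in each knockdown library than in any control. Its part in the levels of Col4a5 and Col4a6 was not tested.

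**Figure D3:**
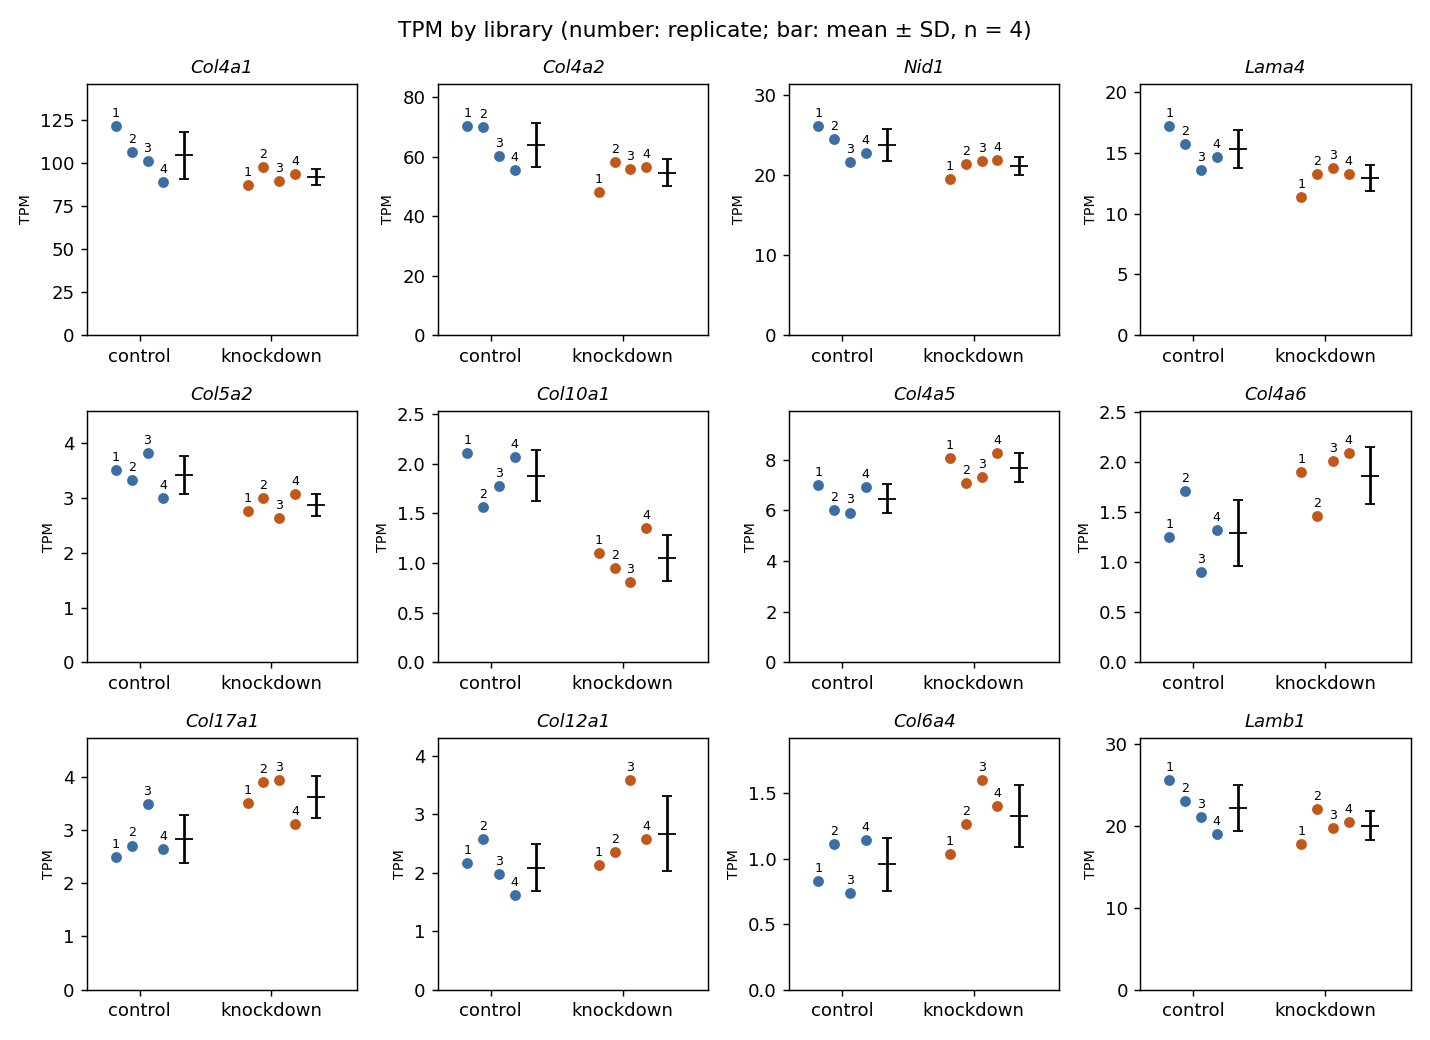
TPM (y axes, from 0) in each control and knockdown library for the 11 genes at an unadjusted p under 0.05 and for Lamb1, with replicate numbers over the points and the mean ± SD (n = 4) beside each group. Col10a1 and Col4a5 are the genes whose groups do not overlap, while control 4 lies among the knockdown libraries for Col4a1 and Col4a2.

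Among laminins Lamc1, Lamb1 and Lama4 led in level, and Lama4 was the highest α chain. Lama4, an α chain of vascular laminins, had 17.2, 15.7, 13.6 and 14.7 TPM in the controls and 11.4, 13.2, 13.8 and 13.2 TPM in the knockdown. Knockdown 3 reached just above control 3 in TPM, and in CPM the groups did not overlap (lower in the knockdown, as for 1.71% of all tested genes). This gave a log2 fold change of -0.25 (SE 0.08, edgeR unadjusted p = 0.00537, adjusted p = 0.581), with -0.30 to -0.20 over the fits that leave out 1 library.

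The β and γ chains that pair with Lama4 had smaller differences. Lamb1 had 25.6, 23.1, 21.1 and 19.1 TPM in the controls and 17.9, 22.1, 19.8 and 20.5 TPM in the knockdown, with overlap between the groups (log2 fold change -0.15, SE 0.08, edgeR adjusted p = 0.939). Without control 1 the change in Lamb1 was -0.08. Lamc1, the γ chain of most laminins, had 25.3, 25.1, 20.5 and 21.2 TPM in the controls and 21.1, 22.6, 21.5 and 21.6 TPM in the knockdown, also with overlap (log2 fold change -0.09, SE 0.06, edgeR adjusted p = 0.989; between -0.14 without control 3 and -0.05 without control 1). Lamb1 and Lamc1 were close to equal in level, with a ratio of 0.844 to 1.03 over the 8 libraries. The ratio of Lama4 to Lamc1 was 0.665 ± 0.0280 in the controls and 0.594 ± 0.0436 in the knockdown (SD, n = 4), with control 2 at 0.627 below knockdown 3 at 0.640.

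The remaining laminins were lower in level. Lamb2, the β chain of the inner limiting membrane and of synapses, had 6.63 ± 0.966 and 6.77 ± 0.618 TPM in control and knockdown (SD, n = 4). Lama5, a broadly expressed α chain of mature basement membranes, had 3.18 ± 0.346 and 3.54 ± 0.222 TPM, Lama1, an embryonic α chain kept in the inner limiting membrane, 2.88 ± 0.196 and 2.65 ± 0.0982 TPM, and Lama2, the muscle and glial α chain, 1.72 ± 0.324 and 1.62 ± 0.264 TPM (SD, n = 4). Lamc3 had 1.06 ± 0.127 and 1.21 ± 0.280 TPM. Each of these 5 genes had overlapping groups. Lama3 and Lamb3, chains of epidermal laminin, did not pass the filter, and Lamb3 had 0 to 8 counts per library.

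Of the linkers, Nid1 differed in the same direction as the abundant type IV chains. It had 26.2, 24.5, 21.7 and 22.8 TPM in the controls and 19.5, 21.4, 21.8 and 21.8 TPM in the knockdown, with control 3 just under knockdown 3 and 4. The edgeR estimate was a log2 fold change of -0.18 (SE 0.06, edgeR unadjusted p = 0.0104, adjusted p = 0.730), and in CPM the groups did not overlap. Without control 1 the change in Nid1 was -0.13 (unadjusted p = 0.0502). Nid2, its paralog, had 10.97 ± 1.33 and 10.6 ± 1.32 TPM (SD, n = 4), and an opposite-strand gene, Rtraf, covers 8.45% of its exonic bases. Rtraf was far higher, at 97.8 ± 2.67 and 102 ± 7.92 TPM (SD, n = 4), and its part in the Nid2 counts was not tested. Hspg2, which encodes perlecan, had 6.16, 5.77, 5.18 and 4.80 TPM in the controls and 4.59, 4.94, 5.06 and 5.12 TPM in the knockdown (log2 fold change -0.15, SE 0.08, edgeR adjusted p = 0.930), and the change in Hspg2 was -0.10 without control 1. Agrn, an organiser of synapses and of the inner limiting membrane, had 49.0, 51.0, 39.6 and 39.5 TPM in the controls and 56.8, 40.9, 50.8 and 45.8 TPM in the knockdown (log2 fold change 0.12, SE 0.10, edgeR adjusted p = 0.989). For Agrn the change lay between 0.0093 (without knockdown 1) and 0.20 (without knockdown 2) when single libraries were left out.

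Markers of vessel cells had the same direction. Of 10 endothelial markers 9 had negative log2 fold changes, 5 of the 10 at an unadjusted p under 0.05 and 0 called by edgeR, against 48.2% negative, 5.27% at that p and 0.062% called over all tested genes. Their median was -0.19, and their summed level was 297 to 352 TPM in the controls and 299 to 312 TPM in the knockdown. Of 10 pericyte and smooth muscle markers 8 were negative, 4 of the 10 at an unadjusted p under 0.05, with a median of -0.14 and sums of 247 to 298 TPM in the controls and 235 to 252 TPM in the knockdown. Control 1 was the highest library in the endothelial and pericyte sums and in the sums of type IV collagens (208 TPM) and laminins (86.3 TPM). In bulk RNA a smaller number of vessel cells and less RNA per cell cannot be told apart, and the part of vessel cells in these levels was not tested. Müller glia markers, which label the cells facing the inner limiting membrane, had 4 positive and 4 negative changes with a median of 0.00 and 0 at an unadjusted p under 0.05. Of 9 tested pigment epithelium and ciliary body markers 5 were positive and 4 negative, with 3 higher and 1 lower at an unadjusted p under 0.05 and a median of 0.28. Their sums overlapped between the groups, at 314 to 377 TPM in the controls and 299 to 394 TPM in the knockdown. Of 5 tested astrocyte markers 3 were positive, with 0 at an unadjusted p under 0.05. The astrocyte list summed to 150 to 180 TPM in the controls and to 228, 148, 160 and 148 TPM in knockdown 1 to 4. Knockdown 1 was thus its highest library, and the part of astrocytes in the levels of the members was not tested.

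**Figure D4:**
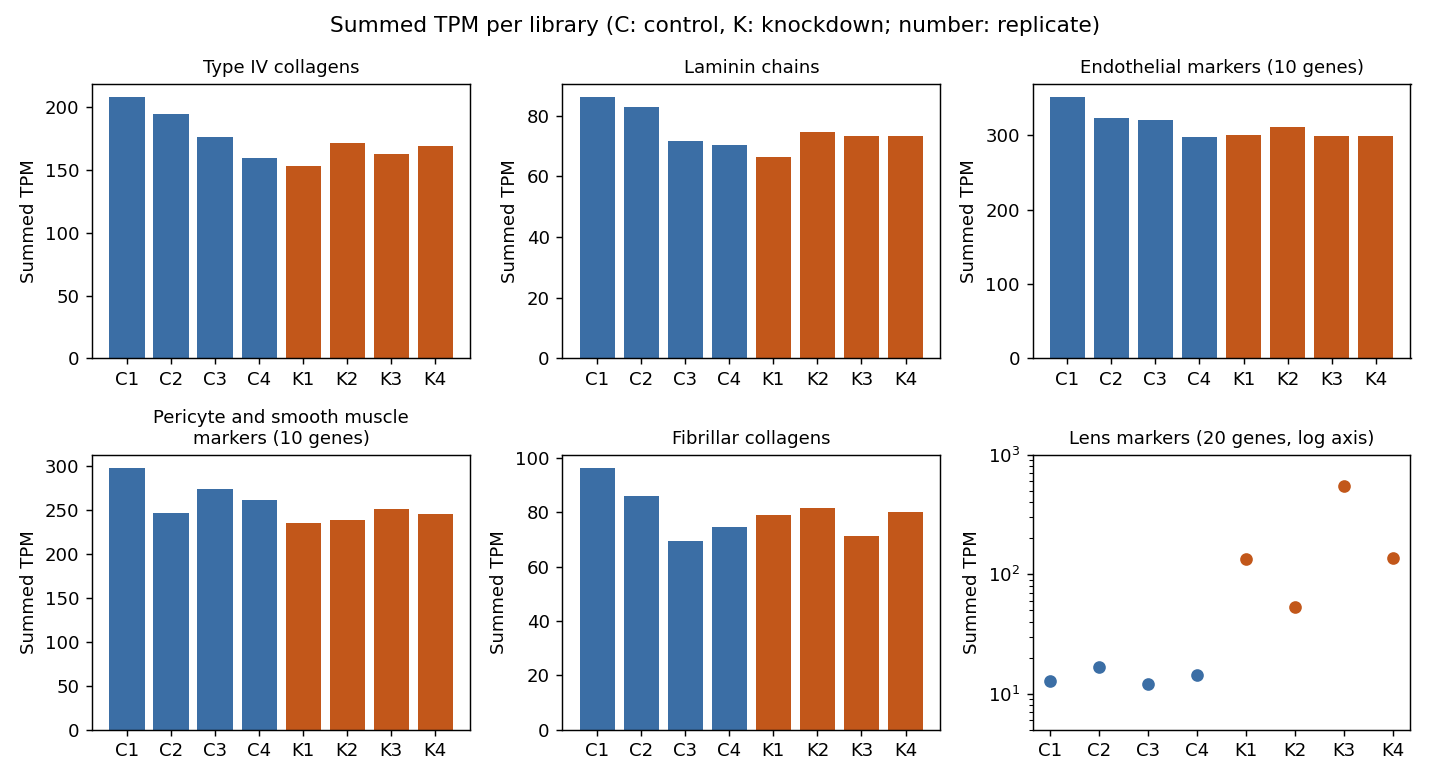
Summed TPM per library for type IV collagens, laminin chains, endothelial markers, pericyte and smooth muscle markers and fibrillar collagens (bars from 0) and for lens markers (points, log axis). Control 1 is the highest library in the first 5 panels, and the 4 knockdown libraries, at 53.2 to 549 TPM, lie above the controls, at 12.1 to 16.6 TPM, in the lens panel.

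Among fibrillar collagens Col2a1 was far the most abundant, and the collagens of scar and sclera were scarce. Col2a1, which forms vitreous fibrils and cartilage, had 53.4, 49.8, 42.5 and 44.7 TPM in the controls and 48.3, 51.5, 40.3 and 44.7 TPM in the knockdown, with complete overlap (log2 fold change -0.04, SE 0.08, edgeR adjusted p = 0.997). Col5a2, a chain of the collagen V that starts fibrils, had 3.51, 3.34, 3.83 and 3.01 TPM in the controls and 2.77, 3.01, 2.64 and 3.08 TPM in the knockdown. Control 4 lay level with knockdown 2 and 4. On the log2 scale the difference was -0.25 (SE 0.11, edgeR unadjusted p = 0.0408, adjusted p = 0.919).

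Collagen I and III chains were high in 1 control. Col1a1 had 3.59 TPM in control 1 and 1.07 to 1.52 TPM in the other controls, against 1.03 to 1.48 TPM in the knockdown (log2 fold change -0.64, SE 0.31, edgeR adjusted p = 0.934). Without control 1 the change in Col1a1 was -0.15 (edgeR unadjusted p = 0.505). Col1a2, its partner chain, had 8.21 TPM in control 1 and 3.80 to 6.42 TPM in the other 7 libraries, and Col3a1 had 7.45 TPM in control 1 and 4.06 to 5.30 TPM elsewhere. The fibroblast gene Dcn was at 3.89 TPM in control 1, 0.923 to 1.33 TPM in the other controls and 0.442 to 3.33 TPM in the knockdown, while the fibroblast genes Dpt, Lum and Pi16 were below 1 TPM in every library. The 10 fibroblast and sclera markers, Dcn among them, summed to 38.2, 29.9, 25.1 and 36.0 TPM in controls 1 to 4. In knockdown 1 to 4 they summed to 35.2, 31.8, 30.9 and 43.1 TPM, so knockdown 4 was the highest library. Of the 5 tested, 4 had positive log2 fold changes, with a median of 0.10. The part of connective tissue in the collagen I and III levels was not tested. The other fibrillar chains, Col5a1, Col5a3, Col11a1, Col11a2 and Col27a1, had overlapping groups, with Col5a3 the highest at 7.95 ± 1.29 and 8.82 ± 0.399 TPM (SD, n = 4).

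Fibril-associated collagens, which coat fibrils without forming them, had 6 positive log2 fold changes among 7 tested genes, with a median of 0.17. Col9a1 had 116, 128, 96.7 and 118 TPM in the controls and 116, 112, 131 and 135 TPM in the knockdown (log2 fold change 0.10, SE 0.08, edgeR adjusted p = 0.989). For Col9a1 the change lay between 0.03 (without control 3) and 0.15 (without knockdown 2). Its partner Col9a3 had 23.3 ± 2.01 and 21.5 ± 2.12 TPM, and Col9a2 had 12.3 ± 1.15 and 14.0 ± 1.62 TPM (SD, n = 4). The 3 chains, which form 1 trimer, were thus unequal in RNA, with Col9a1 at 4.30 to 6.50 times the TPM of Col9a3 and at 7.27 to 10.4 times that of Col9a2. RefSeq gives 2 promoter windows for Col9a1, which a table of gene totals does not separate.

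Col12a1, a fibril-associated collagen of tendon and cornea, had 2.17, 2.58, 1.97 and 1.61 TPM in the controls and 2.14, 2.35, 3.58 and 2.57 TPM in the knockdown. Only knockdown 3, the library with the highest lens marker sum, lay above all controls. The log2 fold change was 0.34 (SE 0.15, edgeR unadjusted p = 0.0421, adjusted p = 0.919), and 0.19 without knockdown 3 (unadjusted p = 0.192). Col16a1, Col19a1 and Col20a1 had overlapping groups, and Col14a1 and Col22a1 did not pass the filter.

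Col10a1, a network collagen of growth plate cartilage, had the largest change among the tested members, at a low level. It had 2.11, 1.56, 1.78 and 2.06 TPM in the controls and 1.10, 0.951, 0.805 and 1.35 TPM in the knockdown, from 40 to 55 counts and from 16 to 34 counts per library. All knockdown libraries lay below all controls, as held in the same direction for 1.45% of all tested genes. This gave a log2 fold change of -0.83 (SE 0.23, edgeR unadjusted p = 0.00338, adjusted p = 0.465), with -0.97 to -0.72 over the fits that leave out 1 library. Col10a1 (chromosome 10, 34389981 to 34397085, plus strand) lies inside the opposite-strand gene Nt5dc1 and shares 18 exonic bases with it. Whether counting used strand is not given in the sources used here, so reads from unspliced Nt5dc1 RNA cannot be told apart from those of Col10a1. Nt5dc1 itself had 6.18 ± 0.826 and 5.87 ± 0.864 TPM (SD, n = 4).

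Of the other network and anchoring collagens, Col8a1, a chain of vascular and corneal endothelial matrix, had 12.7, 14.9, 14.9 and 12.1 TPM in the controls and 14.2, 12.9, 14.5 and 13.01 TPM in the knockdown (log2 fold change -0.00, SE 0.08, edgeR adjusted p = 0.999). Its partner Col8a2 had 5.26 ± 1.18 and 4.61 ± 0.675 TPM, Col26a1 5.38 ± 0.711 and 5.22 ± 0.776 TPM, and Col7a1, which anchors epithelia, 2.29 ± 0.291 and 2.32 ± 0.760 TPM (SD, n = 4). Each of these groups overlapped. Col28a1 did not pass the filter.

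Collagen VI, a microfibril around many cell types, was carried by Col6a1 and Col6a2. Col6a1 had 16.9, 21.5, 11.7 and 13.9 TPM in the controls and 14.9, 16.2, 17.4 and 21.03 TPM in the knockdown, with full overlap (log2 fold change 0.12, SE 0.15, edgeR adjusted p = 0.989), and Col6a2 had 5.53 ± 0.757 and 5.77 ± 0.536 TPM (SD, n = 4). Col6a3, the large chain of the classic trimer, was at 0.436 to 0.944 TPM. Col6a4 had 0.83, 1.11, 0.739 and 1.15 TPM in the controls and 1.04, 1.26, 1.602 and 1.40 TPM in the knockdown. Knockdown 1 lay among the controls. The edgeR estimate was a log2 fold change of 0.46 (SE 0.20, edgeR unadjusted p = 0.0348, adjusted p = 0.911). Col6a5 and Col6a6 were below the filter, at 0.0557 to 0.313 TPM.

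The multiplexins Col15a1 and Col18a1 carry heparan or chondroitin sulfate chains in basement membranes, and the end of Col18a1 is cleaved to endostatin, an inhibitor of vessel growth. Col18a1 had 30.4, 28.5, 24.2 and 26.5 TPM in the controls and 29.8, 25.2, 25.6 and 30.4 TPM in the knockdown (log2 fold change 0.02, SE 0.08, edgeR adjusted p = 0.998). Col15a1 had 3.44 ± 0.725 and 3.26 ± 0.381 TPM (SD, n = 4), and both had overlapping groups.

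Transmembrane collagens sit in the plasma membrane and can be shed. Col23a1 had 53.0, 50.7, 49.2 and 51.3 TPM in the controls and 52.8, 51.9, 52.0 and 58.5 TPM in the knockdown (log2 fold change 0.07, SE 0.05, edgeR adjusted p = 0.989; 0.03 without knockdown 4), and Col25a1, a neuronal collagen, 32.4 ± 3.81 and 32.0 ± 6.57 TPM (SD, n = 4). Col17a1, a hemidesmosome collagen of epithelia, had 2.49, 2.71, 3.48 and 2.65 TPM in the controls and 3.51, 3.91, 3.94 and 3.12 TPM in the knockdown. Knockdown 4 lay below control 3. On the log2 scale the difference was 0.35 (SE 0.14, edgeR unadjusted p = 0.0249, adjusted p = 0.874). Col13a1 did not pass the filter. Corneal epithelium keratins Krt5 and Krt14 were at 0 in every library and Krt12 at 0.0633 to 0.344 TPM.

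**Figure D5:**
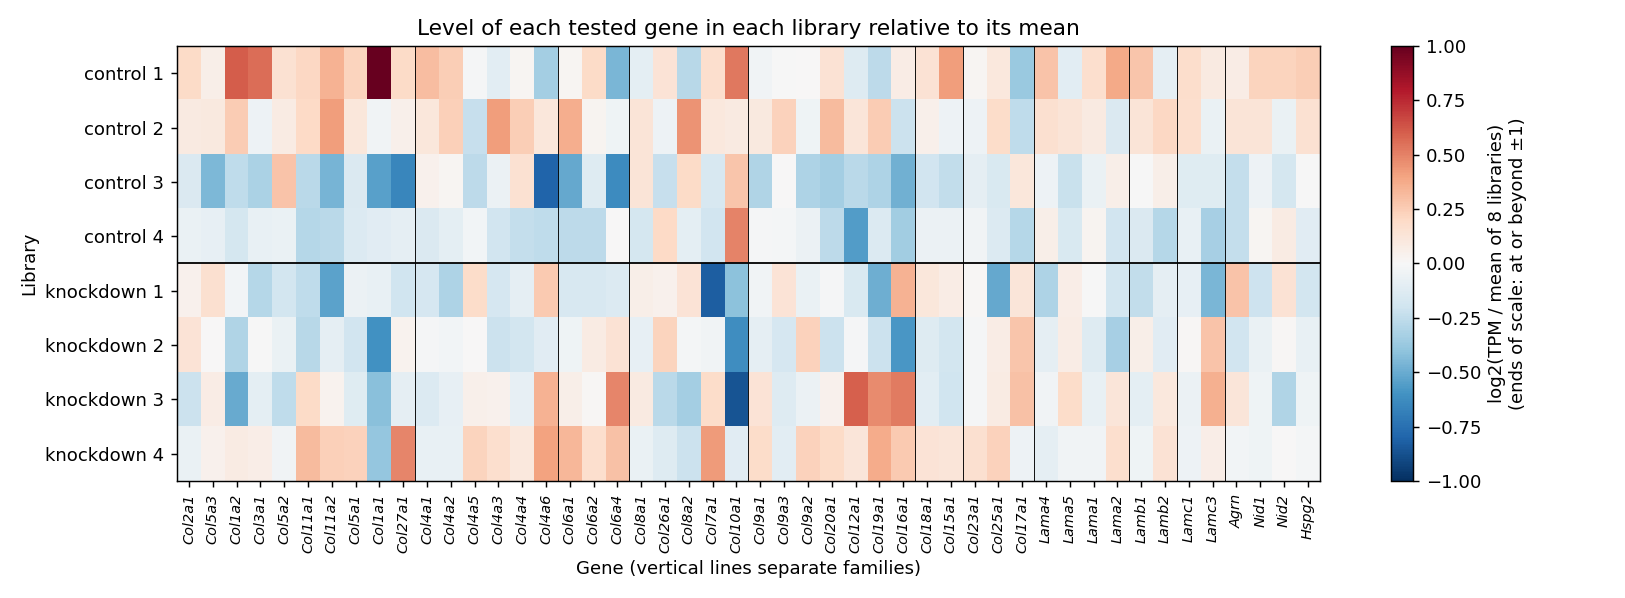
log2 of TPM over the gene's mean of the 8 libraries (colour, ends of scale at or beyond 1 in size) for the 48 tested genes (x axis, by family) in each library (y axis). Control 1 is highest of the 8 libraries for 18 genes, Col1a1 the deepest red among them, and control 3 is lowest for 15 genes.

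Libraries differed across many members at once. Control 1 had the highest of the 8 values for 18 of the 48 genes and knockdown 4 for 10. Control 3 had the lowest value for 15 and knockdown 1 for 11. Summed over all 59 genes the level was 827, 817, 690 and 706 TPM in the controls and 717, 733, 743 and 781 TPM in the knockdown, so the groups overlapped. Over the 8 libraries of both groups, type IV collagens made 21.3% to 25.6% of the summed TPM in a library and fibril-associated collagens 19.7% to 23.8%. Fibrillar collagens made 9.59% to 11.7% and laminins 9.25% to 10.4%. By group, type IV collagens summed to 185 ± 21.2 TPM in control and 164 ± 8.40 TPM in knockdown libraries (SD, n = 4). Fibril-associated collagens summed to 160 ± 16.8 and 170 ± 12.6 TPM (SD, n = 4). Both sums overlapped between the groups.

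Genes that act on or bind these proteins did not pass the test either at this filter. Counts at an unadjusted p under 0.05 in the 3 lists that follow, 7.14%, 3.85% and 3.70% of the genes tested, lay near the 5.27% over all genes. Of 14 tested basement membrane receptors, 0 were called by edgeR and 1 had an unadjusted p under 0.05, with 7 positive and 7 negative changes. The smallest p-values belonged to Sgcb, a sarcoglycan (37.1 TPM in control and 33.8 TPM in knockdown on average, log2 fold change -0.14, edgeR adjusted p = 0.917), and Utrn, a link from dystroglycan to the cytoskeleton (17.96 and 16.5 TPM, log2 fold change -0.13, edgeR adjusted p = 0.971). Of 26 tested collagen folding and crosslinking genes, 0 were called and 1 had an unadjusted p under 0.05, with 16 positive changes. That gene, Pcolce, an enhancer of procollagen cleavage, had 8.41 to 13.2 TPM in the controls and 70.5, 7.26, 15.0 and 9.18 TPM in the knockdown, so its log2 fold change of 1.24 rested on knockdown 1 and was -0.12 without it. With no expression filter its edgeR adjusted p was 0.0305. Ppib, a prolyl isomerase of collagen folding, had means of 227 and 243 TPM in control and knockdown (edgeR adjusted p = 0.963). Of 27 other tested matrix genes, 0 were called and 1 had an unadjusted p under 0.05. It was the proteoglycan gene Prelp, at 29.3 TPM in control and 33.7 TPM in knockdown (edgeR adjusted p = 0.930), and next came Bgn, biglycan, at 21.1 and 18.6 TPM (edgeR adjusted p = 0.930).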

How the data were processed

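RNA was measured in 4 control and 4 knockdown retinal libraries. The deposited table is named for TPM, but its values are estimated counts per gene: the libraries sum to 16.03 to 21.4 M (M, 1000000) and 90.6% to 91.9% of entries are whole. How the estimates were made, and whether by strand, is not given in the sources used here. Per the submitters' processing notes Bowtie 0.12.2 and mm9 were involved, in roles they do not state. Groups come from the sample titles. The authors' group means were not used.

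Counts were rounded, TPM was computed from counts and the table's gene lengths, and 16118 genes (1 TPM or above in 4 or more of 8 libraries) were fitted in edgeR 4.0.16 (R 4.3.3; quasi-likelihood F test), with TMM scaling, the group as the only term and Benjamini-Hochberg adjustment over all tested genes. All p-values printed without another tool's name are edgeR's, two-sided. Each SE was derived by dividing the size of the log2 fold change by the root of its F statistic. CPM are TMM-scaled. limma 3.58.1, DESeq2 1.42.0, other filters and scalings, covariates and fits without each library were alternatives. Floors of 3 counts reflect counting error alone, because PCR copies were not marked. Fits were tried on simulated counts. Positions are from GENCODE M21 (GRCm38), where all 59 genes matched by identifier. The files give no coordinates.

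The members, families, marker lists and tests were chosen with earlier results of these data known. Members with per-library values and tests were those at an unadjusted p under 0.05, those whose groups did not overlap, and the highest of each family. Col1a1 and Hspg2, and the markers Dcn, Dpt, Lum, Pi16, Foxe3, Krt5, Krt12 and Krt14, were added after their values were seen. Some genes are not reported here.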

Additional observations from a re-analysis of the deposited data

Results flagged for a closer look

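In 3 of 96 groups of 4 libraries, 2 groups for each tested member, 1 library lay far from the other 3 (by Dixon's ratio of gap to range). Chance gives about 1 in 20 such groups, more than the 3.12% seen. Col23a1 had 58.5 TPM in knockdown 4, where the other knockdown libraries had 51.9 to 52.8 TPM. Nid1 had 19.5 TPM in knockdown 1, where the others had 21.43 to 21.8 TPM. Col9a3 had 26.3 TPM in control 2, where the others had 22.1 to 22.5 TPM.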

How the results depend on the processing

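With edgeR the count of called members was 0 under every alternative run but one: with no filter other than a count above 0 it was 1 (Col4a2, adjusted p = 0.0496). The 11 members at an unadjusted p under 0.05 became 4 with limma at each pseudocount (1, 0.1 and 5), 5 where the mean had to reach 5 TPM and 26 members were tested, and 5 to 12 when single libraries were left out, lowest without control 1. The 10 genes called over all became 0 with limma on log2(TPM + 1) and on log2(TPM + 5), 157 with no filter, 1 with the mean TPM filter, 45 with DESeq2, 0 with robust dispersion, and 0 to 58 when single libraries were left out. The members' median log2 fold change of -0.03 lay between -0.075 and 0.026 without single libraries and was positive without control 1 (0.026) or control 2 (0.025). Small changes turned sign: Col2a1 ranged from -0.095 to 0.028, Col18a1 from -0.040 to 0.066, Col6a1 from -0.0046 to 0.27 and Col8a1 from -0.046 to 0.045 without single libraries. Col18a1 was at -0.0063 with the Y-linked covariate. Col8a1 was at 0.0031, 0.0036 and 0.0018 with limma (pseudocounts 1, 0.1 and 5) and at 0.0015 with library totals only. The cause of these shifts was not tested. The 11 members kept their direction in all fits that tested them.

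Same-numbered libraries did not deviate together (correlations 0.0068, -0.0070, -0.031 and -0.18), so the numbers were not read as pairs. With the replicate number as a block, edgeR called 0 members and 11 genes in all, and 10 members had an unadjusted p under 0.05. At 16.03 to 21.4 M counts per library, members near 1 TPM rest on few counts, as with the 16 to 55 counts of Col10a1.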
